A study of Homo sapiens with 6 samples.

Results

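The genes described here are targets of the transcription factor p53 and components of the DNA damage response, measured in WM164 melanoma cells that had been kept under a BRAF inhibitor. They were chosen as a list of 36 gene symbols, and each was read through the array probe set that carries its symbol alone. Of the 36 genes, 32 were measured, among 18417 genes with such a probe set. BTG2, FDXR, BRCA2 and FANCD2 were not analysed here. Each of the 32 genes had a single probe set, and none was removed for a low value.

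The WM164 line comes from a melanoma whose BRAF kinase is mutated. The IDTC colonies had been cultured for 60 days with 500 nM PLX4032, an inhibitor of mutant BRAF known as vemurafenib, with fresh inhibitor at every change of medium, and the labels call them resistant. The parent cells carry the same BRAF mutation and received the solvent DMSO, per the series title. Each group had 3 samples of this single line, and 1 Affymetrix whole-transcript array was used per sample. Nothing in the sources used here says whether the 3 samples of a group came from separate cultures, so the spread behind the p-values may be technical only.

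The p53 protein is stabilised when DNA is damaged or growth is disturbed, and then switches on genes that halt the cell cycle, repair DNA, adjust metabolism or trigger cell death. Among its own targets are MDM2 and PPM1D, which switch p53 off again, so the pathway carries negative feedback. Upstream, the kinases ATM and ATR sense broken and stalled DNA and act through CHEK2 and CHEK1. In melanoma p53 is often unmutated and held in check by MDM2 and MDM4.

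The colonies differed from the parent cells at many of these genes, but in both directions. Expression of 12 of the 32 genes rose and that of 10 fell, and 10 did not pass the test (limma, Benjamini-Hochberg adjusted p under 0.05 over all genes). The test called 43.8% of all 18417 genes, of which 20.9% were higher and 22.9% lower. The share of 22 of 32 (68.8%) has to be read against the level of the genes, since 26 of the 32 lay above the median expression. Among genes above that median 68% were called, against 20 of these 26 members (76.9%). Differences of at least 1.5-fold that passed the test were found at 11 of the 32 members (34.4%), against 15.5% of all genes. Of these 11, 8 were higher and 3 lower. Above the median expression such differences were found at 11 of the 26 members (42.3%), against 23.9% of genes. PLK2, ZMAT3 and GDF15, all higher, were the 3 members past the test by at least 2-fold, a size reached by 5.41% of all genes. The values of the colonies and of the parent samples did not overlap for 23 of the 32 members (71.9%), against 50.8% of all genes. For the 2-fold differences and for the overlap, no share was taken among genes above the median expression, where most members lay. The median log2 difference was 0.03 over the 32 members and -0.0042 over all genes.

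**Figure D1:**
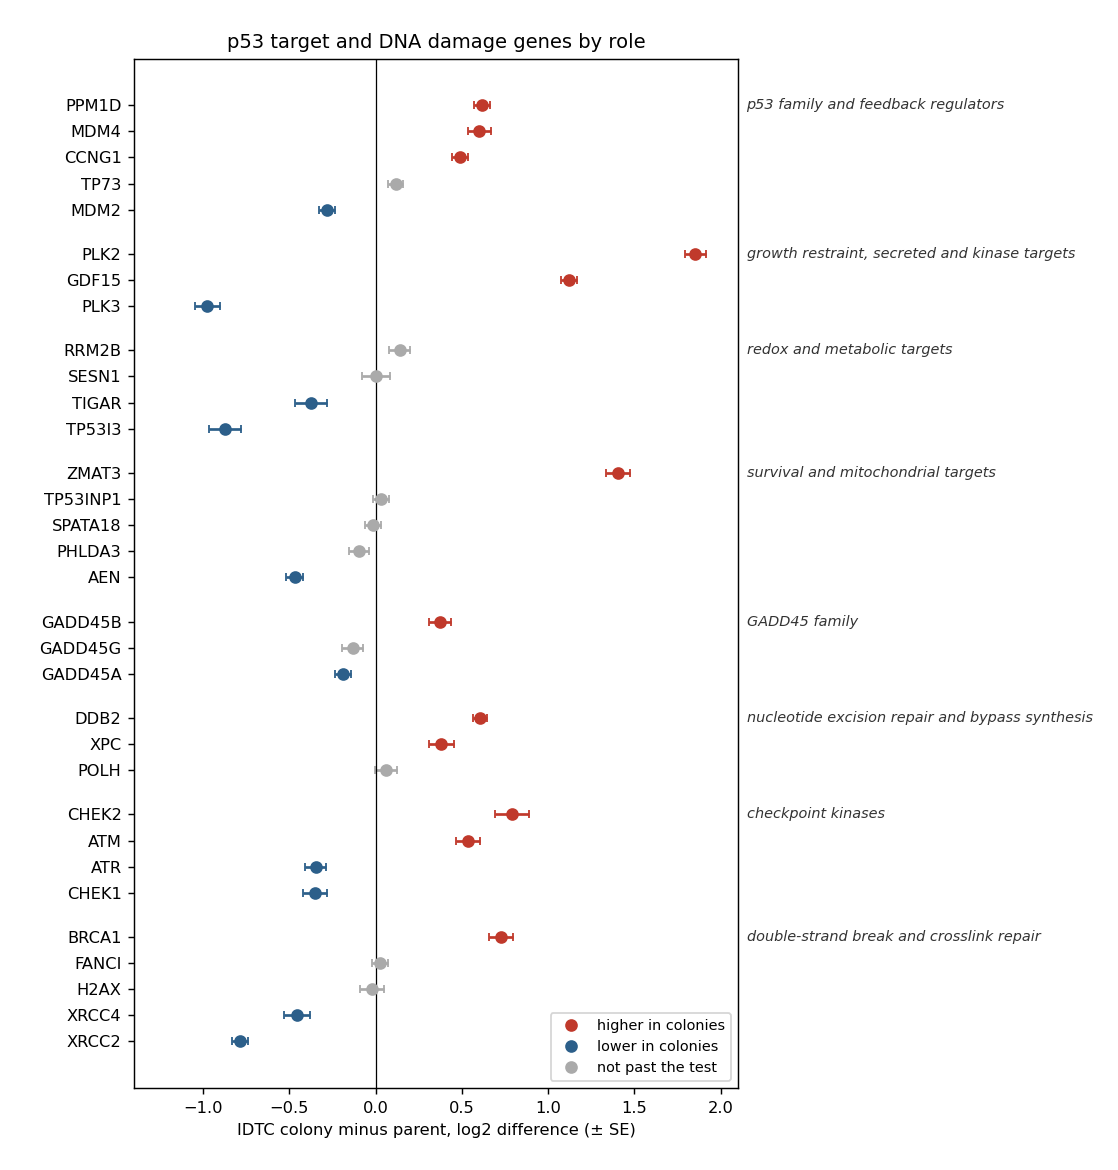
Log2 difference between IDTC colonies and parent cells (horizontal axis, point ± SE) for the 32 measured genes, grouped by role and coloured by the outcome of the test. PLK2 (1.85), ZMAT3 (1.41) and GDF15 (1.12) lie farthest to the right and PLK3 (-0.98) farthest to the left, and most role groups hold both red and blue points.

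The stretches of DNA at which p53 could act were looked up for the members in the windows from 250 bases before to 50 bases after the RefSeq start sites (GRCh38.p14). Such windows were found for 27 of the 32 genes. The p53 half-site consensus, which reads the same on both strands, was present in windows of 4 of the 27 genes, namely PLK2, DDB2, AEN and SESN1. In windows counted singly this was 4 of 41 (9.76%), against 6.63% of all 35116 windows of the same length. The following 60-base stretches are shown because their genes went different ways, with the half-sites in capitals.
PLK2 (chr5:58460184-58460243, minus strand): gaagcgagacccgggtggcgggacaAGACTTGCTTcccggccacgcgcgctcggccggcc
DDB2 (chr11:47214954-47215013, plus strand): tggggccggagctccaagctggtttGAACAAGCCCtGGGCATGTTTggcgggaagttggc
AEN (chr15:88621281-88621340, plus strand): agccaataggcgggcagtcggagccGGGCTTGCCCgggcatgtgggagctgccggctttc
SESN1 (chr6:109009003-109009062, minus strand): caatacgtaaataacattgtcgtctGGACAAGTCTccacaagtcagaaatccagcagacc
PLK2 and DDB2 rose, AEN fell and SESN1 did not pass the test. DDB2 was the only one of the 4 with 2 half-sites in its window, and a base lies between them. The full site, searched as a pair of half-sites with no base between them, was in 0 of the 41 windows, against 0.0171% of all windows. A match describes the letters and is not shown to be a site that p53 occupies.

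Among the members that restrain growth, PLK2 had the largest rise. PLK2 (probe set 8112202), a polo-like kinase that p53 induces, read 9.90, 9.89 and 9.91 on the log2 scale in colonies 1 to 3, against 8.16, 7.97 and 8.001 in parent samples 1 to 3. The colonies were all higher than the parent samples, by 3.61-fold (log2 difference 1.85 ± 0.06 (SE), limma adjusted p = 5.31e-07). PLK3 (probe set 7901054), a related kinase that responds to stress, went the other way. Its values were 7.01, 7.002 and 7.05 in the colonies, against 7.94, 7.91 and 8.15 in the parent samples. The groups did not overlap, and the log2 difference was -0.98 ± 0.07 (limma adjusted p = 2.3e-05).

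GDF15 (probe set 8027002), a secreted member of the TGF-beta family induced by p53 and by the integrated stress response, was at 12.98, 13.09 and 13.01 in the colonies and at 11.95, 11.87 and 11.90 in the parent samples. It rose by 2.18-fold (log2 difference 1.12 ± 0.05, limma adjusted p = 2.12e-06). Genes of the integrated stress response, a pathway that runs through the factor ATF4, are given beside it. Of 13 measured, 9 rose, 3 fell and 1 did not pass (92.3% called, median 0.41), where 68% of all genes above the median expression were called and 11 of the 13 lay above it. The list had DDIT3 at 1.33 ± 0.06 and VLDLR at 0.60 ± 0.05 as its largest rises, and DDIT4 (-0.77 ± 0.05) and SLC7A11 (-0.74 ± 0.05) as the deepest falls. Their part in the rise of GDF15 was not tested.

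Survival and mitochondrial targets were led by ZMAT3 (probe set 8092230), which encodes an RNA-binding protein that acts in p53-dependent growth control. ZMAT3 stood at 9.90, 9.88 and 9.93 in the colonies, against 8.64, 8.39 and 8.47 in the parent samples. It was 2.65-fold higher, with no overlap between the groups (log2 difference 1.41 ± 0.07, limma adjusted p = 3.47e-06). AEN, an exonuclease that takes part in p53-dependent cell death, fell by 0.47 on the log2 scale (limma adjusted p = 0.000192). TP53INP1, a regulator of p53-dependent death and autophagy, differed by 0.03, SPATA18, which acts in the quality control of mitochondria, by -0.02, and PHLDA3, an inhibitor of AKT, by -0.10. These 3 did not pass the test. The TP53INP1 and SPATA18 means lay below the lowest array median (6.25) in both groups, and whether they lay above background was not tested.

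The 4 measured members among the redox and metabolic targets showed no rise that passed the test. TP53I3 (probe set 8050702), an oxidoreductase named for its induction by p53, read 6.99, 7.01 and 7.34 in the colonies and 7.97, 7.97 and 8.02 in the parent samples. Colony 3 was the highest of its group, but all colonies were lower than all parent samples (log2 difference -0.88 ± 0.09, limma adjusted p = 0.000167). TIGAR, a phosphatase that slows glycolysis, fell by 0.38 ± 0.10 (limma adjusted p = 0.0141), a call that ended without parent sample 1 (-0.31, limma adjusted p = 0.0517) or without parent sample 2 (-0.38, limma adjusted p = 0.05001). RRM2B, the ribonucleotide reductase subunit that p53 induces, differed by 0.14 ± 0.06 and did not pass (limma adjusted p = 0.113). Without parent sample 1 RRM2B passed as higher (0.20, limma adjusted p = 0.00846). SESN1, a sestrin that restrains mTORC1, did not pass and its groups overlapped, at 6.50 ± 0.13 in the colonies and 6.49 ± 0.10 in the parent cells (SD, n = 3 each; limma adjusted p = 0.985).

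The regulators that act back on p53 were divided as well. MDM2 (probe set 7956989), the ubiquitin ligase that degrades p53 and is itself a p53 target, read 9.83, 9.89 and 9.86 in the colonies, against 10.20, 10.12 and 10.10 in the parent samples. It was lower in every colony, by a small amount (log2 difference -0.28 ± 0.05, limma adjusted p = 0.00181). MDM4 (probe set 7909011), its partner that blocks p53 activity, read 7.86, 7.99 and 7.81 in the colonies and 7.39, 7.23 and 7.24 in the parent samples. MDM4 rose by 1.52-fold (log2 difference 0.60 ± 0.07, limma adjusted p = 0.000224). PPM1D (probe set 8008922), a phosphatase that removes activating phosphates from p53 and from damage kinases, gave 9.33, 9.29 and 9.31 in the colonies, against 8.63, 8.72 and 8.73 in the parent samples. It rose by 1.53-fold with no overlap (log2 difference 0.62 ± 0.05, limma adjusted p = 2.72e-05). CCNG1, a cyclin that p53 induces and that lowers p53 through MDM2, rose by 0.49 ± 0.05 (limma adjusted p = 0.000104). TP73, a relative of p53, differed by 0.12 ± 0.04 and did not pass over all genes (limma adjusted p = 0.0662), whereas it passed when only genes above the median expression were tested (limma adjusted p = 0.0307).

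**Figure D2:**
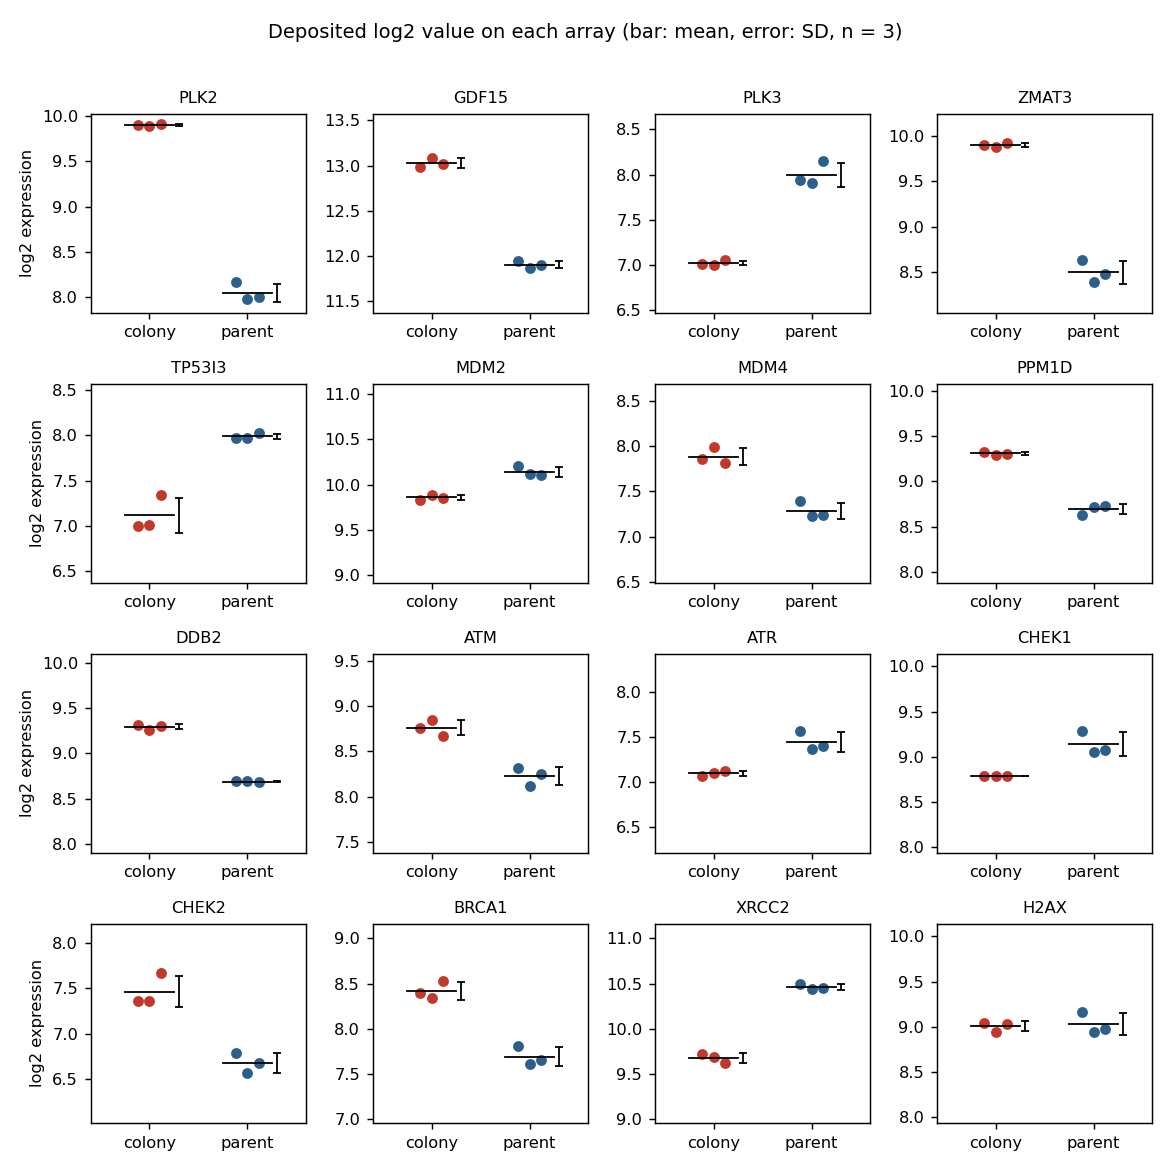
Deposited log2 expression on each of the 6 arrays for 16 members, colonies on the left of each panel and parent samples on the right (points: arrays, long bar: mean, error bar: SD, n = 3). Every vertical axis spans about the same number of log2 units, and the groups are apart in every panel except that of H2AX.

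The GADD45 family, small stress-induced proteins that bind cell cycle kinases and stress kinases, did not move as a group. GADD45B averaged 7.07 ± 0.10 in the colonies and 6.70 ± 0.07 in the parent cells (SD, n = 3 each) and rose by 0.37 (limma adjusted p = 0.00231). GADD45A, the member most closely tied to p53, averaged 7.56 ± 0.03 in the colonies and 7.74 ± 0.05 in the parent cells (SD, n = 3 each), and fell by 0.19 (limma adjusted p = 0.0125). GADD45G, with both means below the lowest array median, differed by -0.13 ± 0.06 and did not pass (limma adjusted p = 0.124), but it did without parent sample 1 (-0.19, limma adjusted p = 0.0112).

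Both members that recognise damage in nucleotide excision repair, the pathway that removes ultraviolet lesions, rose. DDB2 (probe set 7939738), the p53-induced subunit that finds such lesions in chromatin, read 9.31, 9.26 and 9.31 in the colonies and 8.69, 8.69 and 8.68 in the parent samples. The groups were well apart, by 1.52-fold (log2 difference 0.61 ± 0.04, limma adjusted p = 1.65e-05). XPC, which recognises distorted DNA, rose by 0.38 ± 0.07 (limma adjusted p = 0.00331). Its means were 6.65 in the colonies and 6.27 in the parent cells, the latter close to the lowest array median (6.25). POLH, the polymerase that copies past ultraviolet lesions, differed by 0.06 ± 0.06 and did not pass (limma adjusted p = 0.509).

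All 4 checkpoint kinases passed the test, with the RNA of ATM and CHEK2 higher and that of ATR and CHEK1 lower. All 4 lay above the median expression, where 68% of all genes were called in either direction. ATM (probe set 7943620), the kinase activated by double-strand breaks, read 8.76, 8.84 and 8.68 in the colonies, against 8.32, 8.12 and 8.25 in the parent samples (log2 difference 0.53 ± 0.07, limma adjusted p = 0.000484). CHEK2 (probe set 8075164), the kinase below ATM, read 7.36, 7.36 and 7.67 in the colonies and 6.78, 6.56 and 6.68 in the parent samples. Colony 3 stood above the other colonies, and the 1.73-fold rise of CHEK2 left no overlap (log2 difference 0.79 ± 0.10, limma adjusted p = 0.000353).

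ATR (probe set 8091190), the kinase activated by stalled replication forks, read 7.07, 7.10 and 7.12 in the colonies, against 7.57, 7.37 and 7.40 in the parent samples (log2 difference -0.35 ± 0.06, limma adjusted p = 0.00255). CHEK1 (probe set 7945014), the kinase below ATR, read 8.79 in all 3 colonies, against 9.29, 9.05 and 9.08 in the parent samples (log2 difference -0.35 ± 0.07, limma adjusted p = 0.00413). Parent sample 1 was the highest array for both genes, and every colony was lower than every parent sample. Identical deposited values on at least 2 arrays, as for CHEK1, occurred at 9 of the 32 members and at 30.4% of all genes.

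Genes for the repair of double-strand breaks and crosslinks were split. BRCA1 (probe set 8015769), which promotes repair by homologous recombination, read 8.39, 8.34 and 8.53 in the colonies and 7.81, 7.62 and 7.66 in the parent samples. It rose by 1.65-fold (log2 difference 0.73 ± 0.07, limma adjusted p = 0.000112). XRCC2 (probe set 8144036), which acts in the same pathway, read 9.72, 9.69 and 9.62 in the colonies, against 10.50, 10.44 and 10.45 in the parent samples. XRCC2 was 1.72-fold lower, with no overlap (log2 difference -0.78 ± 0.05, limma adjusted p = 8.72e-06). XRCC4, a scaffold of the ligase that joins broken ends, fell by 0.46 ± 0.07 (limma adjusted p = 0.00143).

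FANCI, a partner of FANCD2 in crosslink repair, differed by 0.02 ± 0.05 and did not pass (limma adjusted p = 0.74). H2AX (probe set 7952179), the histone variant that is phosphorylated at breaks, read 9.05, 8.95 and 9.03 in the colonies, against 9.17, 8.95 and 8.98 in the parent samples. The H2AX groups overlapped, and its log2 difference of -0.02 ± 0.07 did not pass (limma adjusted p = 0.843). These are RNA levels, and the phosphorylated form of H2AX was not measured.

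Sites for E2F factors, which switch on replication and repair genes at the start of S phase, were searched in the same windows as TTTCGCGC, TTTGGCGC and TTTCCCGC on both strands. Windows of 5 of the 27 genes held at least 1 of these words, namely TP73, MDM2, AEN, XPC and XRCC2. Among genes with a window, they were 3 of the 9 that fell (MDM2, AEN and XRCC2), 1 of the 12 that rose (XPC) and TP73, which did not pass. Counted singly this was 6 of 41 windows (14.6%, with overlapping windows of MDM2 sharing 1 word), against 2.74% of all windows. The stretches of MDM2 and XRCC2 are shown as examples, chosen after their falls were known, with the word in capitals as it reads on the gene's strand.
MDM2 (chr12:68807922-68807981, plus strand): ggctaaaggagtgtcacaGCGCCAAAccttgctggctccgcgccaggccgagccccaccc
XRCC2 (chr7:152676092-152676151, minus strand): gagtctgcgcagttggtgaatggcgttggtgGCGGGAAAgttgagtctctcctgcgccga
The CCAAT box, searched as CCAAT on both strands, was present for 18 of the 27 genes, of which 9 had risen and 5 had fallen. It was in 63.4% of member windows, against 34.6% of all windows. Overlapping windows of CCNG1, MDM2 and CHEK1 shared some of these boxes. The cell cycle element CHR, searched as TTTGAA and TTCGAA on both strands, was found for 4 of the 12 members that rose with a window and for 0 of the 9 that fell, and in 12.2% of member windows against 16.4% of all windows. In DDB2 it overlapped the first p53 half-site. These counts describe the letters in the windows.

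The members were also set beside their neighbouring genes on the chromosomes. For each gene the median log2 difference of its 50 nearest expressed genes in the RefSeq gene order was taken. It lay on the same side as the gene's own difference for 11 of the 22 called members and on the opposite side for 11. PPM1D, at 0.62, had neighbours with a median of 0.61. MDM2 and ATR, at -0.28 and -0.35, had neighbour medians of -0.21 and -0.28. The gene's own difference and that of its neighbours were therefore within 0.1 of each other for these 3 called members. Neither count was taken over all called genes, so neither is a trait of the members. BRCA1 and MDM4 rose beside neighbour medians of 0.37 and 0.30, and XRCC2 fell beside -0.27. In contrast, PLK2, ZMAT3 and GDF15 rose beside neighbour medians of -0.16, -0.13 and -0.10. CCNG1 rose beside -0.28. The part of the neighbourhood in these results was not tested.

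**Figure D3:**
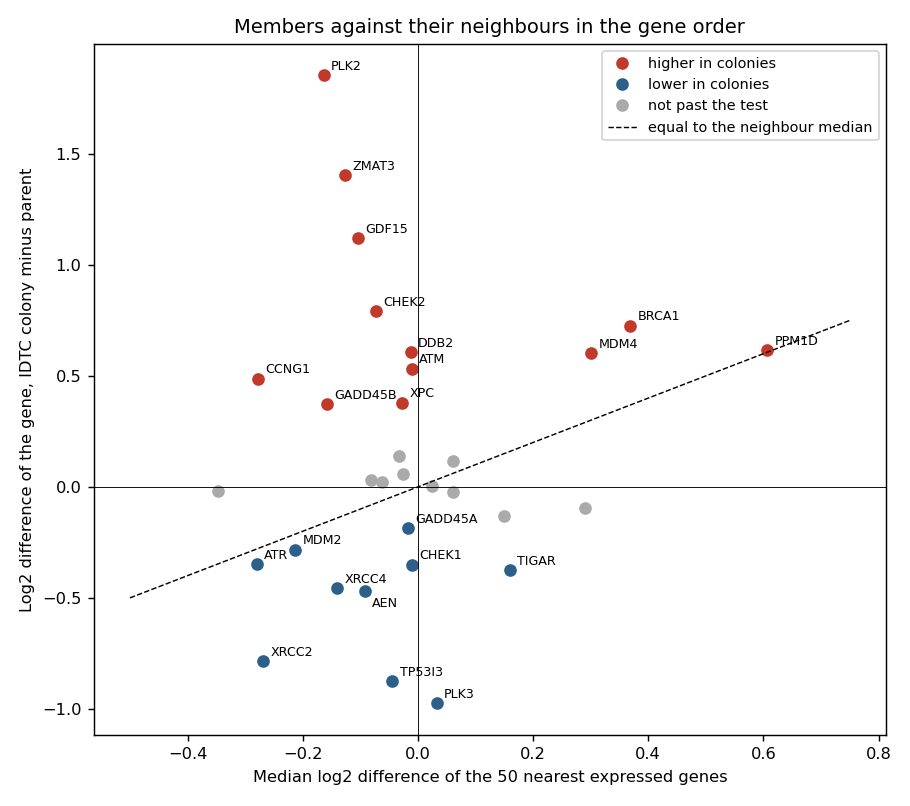
Log2 difference of each of the 32 members (vertical axis) against the median log2 difference of its 50 nearest expressed genes (horizontal axis), coloured by the outcome of the test, with called genes named. PPM1D, MDM2 and ATR lie within 0.1 of the dashed line of equality, whereas PLK2, ZMAT3 and GDF15 lie far above it and PLK3 and TP53I3 far below.

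Of 29 other p53 targets measured, outside the 36, 4 rose and 7 fell, which left 18 short of the threshold (median log2 difference -0.03). The share called was 37.9%, against 43.8% of all genes. Of these 29, 17 lay above the median expression, where 68% of all genes were called. The largest rises were those of the death receptor gene FAS (2.16 ± 0.15, limma adjusted p = 1.7e-05, with a parent mean of 4.61 that lay below the lowest array median) and of CMBL, a hydrolase gene (1.15 ± 0.05, limma adjusted p = 2.1e-06). CDKN1A, which encodes the CDK inhibitor p21 and is a standard p53 target, had the deepest fall. CDKN1A averaged 7.58 ± 0.08 in the colonies and 8.82 ± 0.13 in the parent cells (SD, n = 3 each), a log2 difference of -1.24 (limma adjusted p = 1.1e-05). TNFRSF10B, another death receptor gene, fell by 0.72. The pro-apoptotic genes BAX (0.03) and BBC3 (-0.01) did not pass the test. Other pro-apoptotic genes of this list did, with PERP (-0.68) and PMAIP1 (-0.24) lower and PIDD1 (0.31) higher. Among regulators of p53, 3 of 17 measured genes rose and 8 fell (64.7% called, median -0.11). Of these 17, 15 lay above the median expression, where 68% of all genes were called. The list was led by TP53BP2 (0.76), which encodes a p53-binding protein, and by PRMT5 (-0.71), an arginine methyltransferase gene. CREBBP (0.39), a p53 acetyltransferase gene, rose, and TP53BP1 (-0.53), a break-response gene, fell.

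Further repair genes also went both ways. The share called was 72.7% of the other homologous recombination and Fanconi genes, 75% of the end joining and break response genes and 78.3% of the excision, mismatch and bypass genes, near the 68% of all genes above the median expression, where most of these genes lay. Of 22 other homologous recombination and Fanconi genes 8 rose and 8 fell (median 0.02), with the crosslink repair gene FANCB at 1.17 and the BRCA1-binding helicase gene BRIP1 at 0.76, against the break sensor gene NBN at -1.04 and FANCM at -0.72. BRIP1 rose beside a neighbour median of 0.66. Of 16 end joining and break response genes 7 rose and 5 fell (median 0.11), among them the ligase gene LIG3 (0.54) and the polymerase gene POLL (0.53), and both subunits of the Ku end-binding complex, XRCC6 (-0.48) and XRCC5 (-0.38). Of 23 excision, mismatch and bypass genes 9 rose and 9 fell (median -0.0073). REV3L, the catalytic subunit of the bypass polymerase zeta, had the largest rise of this list, with 9.64 ± 0.03 in the colonies and 7.92 ± 0.10 in the parent cells (SD, n = 3 each; log2 difference 1.72, limma adjusted p = 6.9e-07). The helicase gene ERCC2 rose by 0.74, while the glycosylase genes UNG (-0.71) and OGG1 (-0.44) fell.

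Of 14 other checkpoint genes 2 rose and 6 fell (57.1% called, median -0.09). Of these 14, 13 lay above the median expression, where 68% of all genes were called. The falls included CDC25A (-1.11), a phosphatase that CHEK1 opposes, and TIPIN (-1.10), a fork protection gene, whereas CDC25B (0.67) and RAD17 (0.32) rose. Of 24 cell cycle markers 6 rose and 12 fell (75% called, median -0.23), and 23 of the 24 lay above the median expression, where 68% of all genes were called. CCNE2 (-1.54) and RRM2 (-1.09), genes of the entry into and passage through S phase, fell, and TOP2A (1.0035) and MKI67 (0.57), genes of dividing cells, rose. These values stand beside those of CHEK1, BRCA1 and XRCC2, repair and checkpoint genes whose RNA is known to vary over the cell cycle, and their part in them was not tested. In bulk RNA, fewer cells in a given phase and less RNA per cell cannot be told apart.

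**Figure D4:**
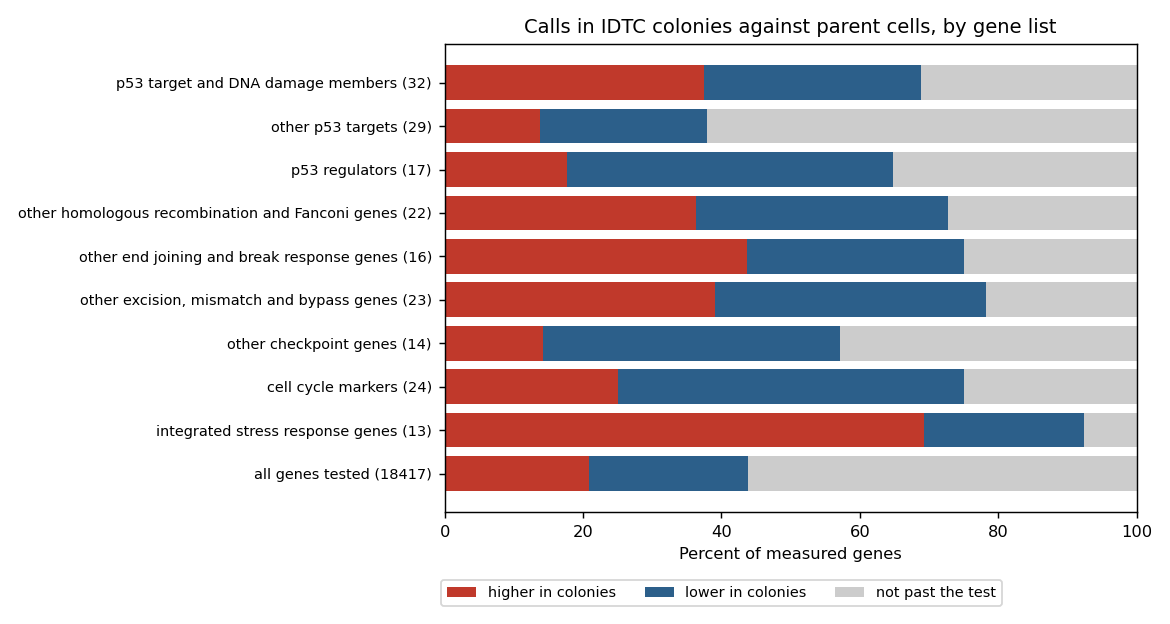
Percent of measured genes (horizontal axis) that were higher in colonies, lower in colonies or not past the test, for the 32 members, 8 other gene lists and all 18417 genes, with the number measured in brackets. The members hold 12 higher and 10 lower genes, the other p53 targets 4 and 7, and the bottom bar shows 43.8% of all genes called.

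The cell identity was read from marker genes. Of 8 melanocyte lineage markers measured, 3 rose, 2 fell and 3 missed the threshold (62.5% called). Their summed unlogged level was 16850 to 17140 in the colonies and 15130 to 15310 in the parent samples. MLANA, a melanosome protein gene, fell to 9.50 in the colonies, against 10.94 in the parent cells (log2 difference -1.45, limma adjusted p = 4.1e-07). PMEL rose to 12.86 in the colonies, against 12.52 in the parent cells, and S100B to 11.59, against 11.02. SOX10 also rose, to 11.14 in the colonies, against 10.73 in the parent cells. MITF stood at 11.14 in both groups. TYRP1, at 4.45 in the colonies and 4.69 in the parent cells, lay below the lowest array median. None of 6 keratinocyte and 5 endothelial markers passed the test, and 2 of 7 fibroblast and 3 of 7 leukocyte markers fell. The summed unlogged level of the leukocyte markers was 1077 to 1120 in the colonies and 2555 to 2715 in the parent samples, through CD68 (-1.27), LYZ (-2.35) and FCER1G (-1.44). The defining leukocyte gene PTPRC was at 3.71 in the colonies and 3.67 in the parent cells, below the lowest array median. Array medians lay between 6.25 and 6.34, and arrays of different groups correlated at 0.967 to 0.969 across genes, against 0.997 to 0.998 within groups.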

How the data were processed

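RNA from 3 IDTC colony and 3 parent samples, grouped by their titles, was measured on Affymetrix whole-transcript arrays. The deposited values are log2 expression per probe set, judged from their range. Affymetrix Expression Console is the tool listed in the submitters' processing notes, with version, summarisation and normalization not given in the sources used here. Of 33297 probe sets, 19460 had 1 gene symbol in the platform annotation, and 19429 of these matched RefSeq (GRCh38.p14) by Entrez ID. For the 769 genes with several, the probe set with the highest mean was used. The difference between colonies and parent cells was fitted with limma (lmFit, eBayes, 2-sided, group only, no filter), adjusted over 18417 genes at a threshold of 0.05. The procedure was tested on simulated data. Arrays have no read depth, and their number limits the precision. Alternatives were other normalizations, a filter on dim genes, averaged probe sets, a block for the replicate number, trend and robust settings, each array left out and the neighbour median subtracted. Scan dates and batches were not given, and any batch aligned with the groups cannot be told apart from treatment. The members and lists were chosen with earlier results of these data known. All members are named. Per-array values are given for called members of at least 1.5-fold, for MDM2, the checkpoint kinases and H2AX. From each other list up to 2 largest called rises and 2 falls are named. BAX, BBC3, PERP, PMAIP1, PIDD1 and SESN2 were added after their values were seen. Sequences are from RefSeq. The software was R 4.3.3, limma 3.58.1 and Python 3.11.15.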

Additional observations from a re-analysis of the deposited data

How the results depend on the processing

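The counts of called members were 12 higher and 10 lower with arrays shifted to a common median, after quantile normalization, with probe sets averaged per gene and with trend and robust settings. They were also 12 and 10 with the replicate number as a block (3633 genes higher and 3931 lower over all genes, against 3849 and 4212 without it), and no member's call changed with this block. The deviations of same-numbered samples from their group means did not go together (r from -0.089 to -0.0096). This does not tell how the samples were made or whether they were paired. With each array left out in turn, 12 to 13 members were higher and 9 to 10 lower. Only genes above the median expression kept 26 members, with 11 higher and 10 lower. Individual calls changed for TIGAR, RRM2B, GADD45G and TP73, as given above, and no called member changed direction in these refits. Of the members that did not pass, SESN1 (-0.06 to 0.07), TP53INP1 (-0.0021 to 0.06), SPATA18 (-0.04 to 0.01), FANCI (-0.0018 to 0.08) and H2AX (-0.06 to 0.05) took either sign. Subtracting the neighbour median, a value with no test, moved 19 of 32 differences by more than the SD between replicates.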
